A study of Arabidopsis thaliana with 28 samples.

Results

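The 48 genes described here belong to the SMALL AUXIN UP RNA (SAUR) family of Arabidopsis. They were taken by locus identifier from a list, with no threshold on a measured value but with earlier results of these data known. They are 48 of the 27371 genes in each of 2 tables of transcript levels, and 48 of the 79 SAUR genes that the reference annotation names. A further locus that the annotation calls SAUR21, AT5G01830, encodes an ARM repeat protein by the same annotation and was not counted. RNA came from whole seedlings 14 days old on sugar-free medium. In the first experiment the groups were WT (Col-0) and the line labelled idd4, which carries a T-DNA insertion in INDETERMINATE-DOMAIN 4 (IDD4), each left untreated or exposed for 1 h to 1 μM flg22, the flagellin peptide that triggers pattern-triggered immunity. In the second experiment a WT of its own was set beside 3 transgenic lines in the Col-0 background that express IDD4 from the constitutive UBI10 promoter. These were IDD4ox (IDD4 fused to GFP), IDD4-AA (an RFP fusion in which the MAPK phosphorylation sites are changed to alanine) and IDD4-DD (the same sites changed to aspartate, RFP fusion), and the labels name no treatment for them. The labels list 3 samples per group in the first experiment and 2 in the second, but the tables hold 1 value per gene and group, combined over replicates by the authors. No difference below therefore has a replicate check, no error can be given, and no test was run.

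SAUR genes are early auxin-induced genes that mostly lack introns and encode small proteins. SAUR proteins of the SAUR19 type are known to bind and inhibit PP2C.D phosphatases, which keeps plasma membrane H+-ATPases (AHA) phosphorylated and active, so that the cell wall is acidified and the cell expands. Many family members stand side by side in tandem arrays, and their short-lived transcripts are found mainly in elongating tissues such as hypocotyls, petioles and young leaves.

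Of the members, 30 lie in 6 tandem arrays and 18 are dispersed over the genome. The arrays hold 6 members on chromosome 5 (AT5G18010 to AT5G18080), 8 on chromosome 1 (AT1G29420 to AT1G29510), 4 on chromosome 3 (AT3G03820 to AT3G03850), 6 and 3 on chromosome 4 (AT4G34760 to AT4G34810, and AT4G38840 to AT4G38860) and 3 on chromosome 2 (AT2G21200 to AT2G21220). In each of the 48 the coding sequence of the longest RefSeq transcript lay in 1 exon. Their transcripts were short, from 427 to 1402 bases with a median of 836.5 bases, against a median of 1541 bases over 26695 genes. The members of the chromosome 5 array are close relatives of each other. Among the 6 pairs of equal coding length in that array, identity ranged from 89.7% (SAUR22 and SAUR24) to 95.2% (SAUR19 and SAUR24). The first 54 coding bases of the 6 genes, from RefSeq (TAIR10.1), are shown to let the likeness of these copies be seen. Capitals mark bases that differ from the most common base at that place, taken as the alphabetically first one on a tie.
SAUR19: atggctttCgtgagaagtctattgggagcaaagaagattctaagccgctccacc
SAUR20: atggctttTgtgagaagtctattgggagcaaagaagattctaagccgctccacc
SAUR21: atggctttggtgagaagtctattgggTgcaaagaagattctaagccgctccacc
SAUR22: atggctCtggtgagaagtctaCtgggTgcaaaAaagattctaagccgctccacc
SAUR23: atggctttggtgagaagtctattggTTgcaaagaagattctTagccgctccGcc
SAUR24: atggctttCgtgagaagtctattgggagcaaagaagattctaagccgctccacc
SAUR19 differed from the most common base at 1 of these places and SAUR22 and SAUR23 at 4 each, so that most of the stretch is shared. Over whole transcripts, 9 members, all of them in arrays, shared at least 1 window of 101 bases (the read length) with another gene. These windows were counted when they occurred exactly in any other gene or within 2 mismatches in another member. SAUR63 (AT1G29440) shared 42.8% of its windows with AT1G29510, and SAUR19 shared 15.2% with 3 of its neighbours. SAUR62 (AT1G29430) shared 8.45% with SAUR75 (AT5G27780), which is no member. SAUR6 (AT2G21210) and SAUR7 (AT2G21200) overlap on the same strand, at chr2:9084628-9086029 and chr2:9083906-9084803, and their levels are uncertain for that reason. Each array is therefore given below as a sum as well as gene by gene. AT1G29490 and AT1G29510 both bear the symbol SAUR68 in the reference and are named here by locus.

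Some facts of the whole tables bear on what follows. IDD4 (AT2G02080) itself was at 14.5 FPKM in untreated WT and at 23.0 FPKM in untreated idd4-labelled seedlings, and at 5.69 and 22.4 FPKM after flg22. FPKM count sequenced fragments relative to transcript length and to all fragments mapped in the library. The level of the targeted transcript thus went against the label. The authors report a homozygous insertion in the first exon and, from sequencing, call the line a true knockout. They also show an RT-PCR of the IDD4 transcript in this line. Whether the stretch counted here lies outside the disrupted part was not tested, so the line is called "idd4-labelled seedlings" throughout. In the second experiment IDD4 was at 9.23 FPKM in WT, 197 in IDD4ox, 71.6 in IDD4-AA and 198 in IDD4-DD. All 5 flg22 marker genes were at least 1.5-fold higher after flg22 in both genotypes, and their summed level went from 21.7 to 796 FPKM in WT and from 29.0 to 1021 in idd4-labelled seedlings. The sum of 12 root markers ranged from 84.8 to 102 FPKM in the first experiment and was 266 in WT, 177 in IDD4ox, 176 in IDD4-AA and 156 in IDD4-DD in the second. RBCS1A, a gene of the Rubisco small subunit and 1 of 10 green shoot markers, was listed at 0 in both untreated groups, so an exact 0 may be an estimate that failed. The sum of the other 9 green shoot markers lay between 21650 and 33868 FPKM over all 8 groups. Every green shoot marker compared was lower in idd4-labelled seedlings than in WT by less than 1.5-fold, 9 of 9 without flg22 with a median of -0.29 and 10 of 10 after flg22 with a median of -0.33. In whole seedlings, fewer cells of a type and less RNA per cell cannot be told apart. The tables were normalized separately, and read depth is unknown.

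SAUR levels spanned a wide range. Of the 48 members, 43 were above 0 in every group, and between 38 and 43 reached 1 FPKM in a given group. SAUR25 (AT4G13790) and SAUR2 (AT4G34780) were listed at 0 in all 8 groups, and AT1G29490, SAUR10 (AT2G18010) and SAUR46 (AT2G37030) in 1 or more groups of the second experiment. SAUR78 (AT1G72430), which is known to interact with ethylene receptors, had the highest level per length in every group. It was at 536 FPKM in untreated WT, 418 in untreated idd4-labelled seedlings, 244 in WT after flg22 and 174 in idd4-labelled seedlings after flg22. It thus fell on treatment in both genotypes and held between 26.6% and 31.9% of the summed FPKM of the members in these groups. In the second experiment SAUR78 was at 161 FPKM in WT, 130 in IDD4ox, 159 in IDD4-AA and 172 in IDD4-DD.

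The main feature of the first experiment was a lower level of the tandem arrays in idd4-labelled seedlings after flg22. Changes are differences of log2(FPKM + 1) between groups, and a gene is counted as higher or lower where it differed at least 1.5-fold on this scale, among genes with at least 1 FPKM in a group compared. After flg22, 23 of the 42 members compared were lower in idd4-labelled seedlings than in WT, against 1.72% of all 17926 genes compared, and 2 were higher, against 3.15% of all genes. The median change of the members was -0.69, beside 0.06 over all genes. The arrays and the dispersed genes differed in their counts. Of 27 array members compared all 27 were below WT, 22 of them by at least 1.5-fold, with a median of -1.02, whereas 9 of 15 dispersed members were below WT, 1 of them (SAUR10) by that much, with a median of -0.10. The summed level of the arrays was 496 FPKM in WT and 245 in idd4-labelled seedlings after flg22, and that of the dispersed members was 422 and 349 FPKM. With each array counted as 1 unit, 7 of 21 units were lower, the 6 arrays and SAUR10, and the median over the units was -0.13. With a filter of at least 5 FPKM 15 of 27 members were lower, against 1.41% of all genes.

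**Figure D1:**
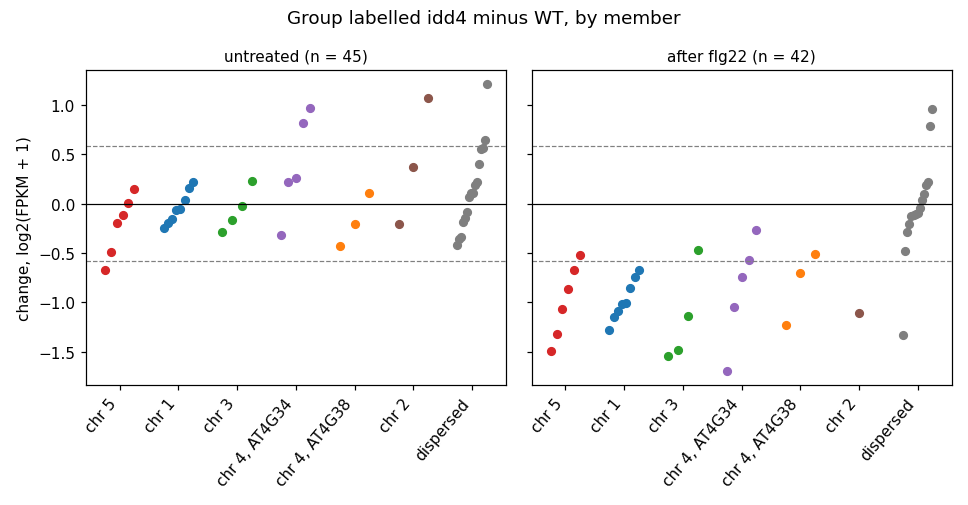
Difference between idd4-labelled seedlings and WT for each SAUR member, in log2(FPKM + 1), untreated (left, 45 members) and after flg22 (right, 42 members); each point is 1 gene, columns are the tandem arrays and the dispersed genes, and dashed lines mark 1.5-fold. After flg22 all 27 array members lie below 0, while the 15 dispersed members spread on both sides.

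Without flg22 the same arrays stood close to WT. Among 45 members compared, 5 were higher in untreated idd4-labelled seedlings than in untreated WT and 1 was lower, against 1.59% and 2.02% of all genes, and the median change was 0.01 beside -0.05 over all genes. The arrays summed to 906 FPKM in WT and 894 in idd4-labelled seedlings. SAUR24 (AT5G18080) was the lower member, at 12.8 FPKM in WT and 7.61 in idd4-labelled seedlings. The higher ones were SAUR1 (AT4G34770, 2.85 and 6.52 FPKM), SAUR4 (AT4G34800, 2.75 and 5.60 FPKM), SAUR12 (AT2G21220, 1.44 and 4.12 FPKM), SAUR34 (AT4G22620, 0.884 and 3.35 FPKM) and SAUR53 (AT1G19840, 2.70 and 4.78 FPKM). SAUR12, SAUR34 and SAUR53 stayed under 5 FPKM in both groups. After scaling to the sum of nuclear genes, which moved all genes upward, 20 of 45 members were higher, beside 24.3% of all genes. The largest differences among the other better-expressed members were 0.40 for SAUR30 (AT5G53590, 17.4 and 23.3 FPKM) and 0.23 for SAUR27 (AT3G03840, 6.57 and 7.89 FPKM) on the higher side. On the lower side they were -0.49 for SAUR22 (AT5G18050, 6.42 and 4.27 FPKM), -0.43 for SAUR15 (AT4G38850, 22.7 and 16.6 FPKM) and -0.36 for SAUR78.

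The flg22 treatment itself was followed by lower levels of many members in both genotypes. In WT 16 of 45 members were lower after 1 h of flg22 and 5 were higher, beside 22.2% and 17.1% of all genes, with a median of -0.25 beside -0.16. These are 35.6% of the members on the lower side and 11.1% on the higher side. Among all genes under 800 bases in WT, 28.8% were lower and 21% higher, and 8 and 2 of 19 members were. From 800 to under 1000 bases the shares were 26.6% and 16.5%, with 5 and 2 of 18 members. At 1000 bases or more they were 21.2% and 16.8%, with 3 and 1 of 8 members. Short genes thus had larger lower shares in WT than all genes. In idd4-labelled seedlings, 28 of 44 members were lower and 2 were higher, beside 19.4% and 20.4% of all genes. The median was -1.04 beside -0.06. Under 800 bases 23.2% of all genes were lower there and 24.2% higher, with 12 and 0 of 18 members. The sum over the members went from 1678 to 917 FPKM in WT and from 1548 to 595 in idd4-labelled seedlings. The difference of the flg22 changes, idd4-labelled seedlings minus WT, was at least 1.5-fold negative for 28 of 46 members and positive for 1, SAUR51 (AT1G75580), beside 2.75% and 6.58% of all genes. It was below 0 for all 29 array members compared and at least 1.5-fold negative for 26, and it was negative for 11 of 17 dispersed members and at least 1.5-fold so for 2. After scaling to the sum of nuclear genes, the difference was at least 1.5-fold negative for 36 of 46 members, beside 18.2% of all genes.

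**Figure D2:**
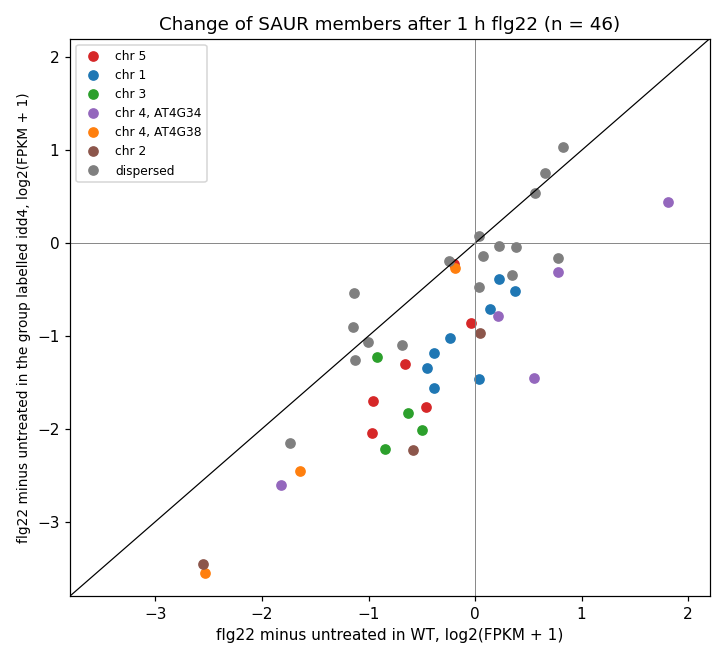
Change after 1 h of flg22 in WT (horizontal) and in idd4-labelled seedlings (vertical), both in log2(FPKM + 1), for the 46 SAUR members with at least 1 FPKM in any of the 4 groups; each point is 1 gene, colours mark the arrays, and the diagonal marks equal change. All 29 array members lie below the diagonal, and the dispersed members lie nearer to it, 11 of 17 below.

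The deepest falls on treatment were shared by both genotypes. SAUR6, of the chromosome 2 array, was at 68.4 FPKM in untreated WT, 59.1 in untreated idd4-labelled seedlings, 10.8 in WT after flg22 and 4.47 in idd4-labelled seedlings after flg22. SAUR16 (AT4G38860), which is known to promote cotyledon opening in the light, was at 99.3, 85.8, 16.4 and 6.41 FPKM in the same order. These are falls of 2.56 and 2.53 in WT and of 3.46 and 3.55 in idd4-labelled seedlings on the log2 scale. SAUR50 (AT4G34760), known for the same role as SAUR16, was at 77.7, 90.5, 21.2 and 14.0 FPKM, with changes of -1.82 and -2.61. SAUR14 (AT4G38840), also known as a light-responsive gene, was at 163, 176, 51.6 and 31.3 FPKM. It changed by -1.64 in WT and by -2.45 in idd4-labelled seedlings. SAUR46 was at 5.50, 5.79, 0.957 and 0.524 FPKM, with changes of -1.73 and -2.16. In all of these genes both treated values lay below both untreated ones.

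A few members moved upward on treatment. SAUR41 (AT1G16510), known to promote hypocotyl elongation, was at 9.49 FPKM in untreated WT and 15.6 after flg22, and at 8.18 and 14.5 FPKM in idd4-labelled seedlings. Its changes, 0.66 and 0.75, were alike. SAUR77 (AT1G17345), a relative of SAUR78, went from 1.80 to 3.96 FPKM in WT and from 1.10 to 3.29 in idd4-labelled seedlings. SAUR36 (AT2G45210), known for its part in leaf senescence, went from 13.5 to 20.5 FPKM and from 15.8 to 23.4, short of 1.5-fold in both. SAUR5 (AT4G34810) and SAUR4, of the array AT4G34 on chromosome 4, were at least 1.5-fold higher after flg22 in WT and not in idd4-labelled seedlings. SAUR5 went from 1.499 to 7.76 FPKM in WT (1.81) and from 0.997 to 1.71 in idd4-labelled seedlings (0.44). SAUR4 went from 2.75 to 5.43 FPKM in WT (0.78) and from 5.60 to 4.33 in idd4-labelled seedlings (-0.31). The differences of these changes were -1.37 and -1.09. SAUR10 went from 0.877 to 2.22 FPKM in WT and from 0.437 to 0.285 in idd4-labelled seedlings, all of them low values.

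In the chromosome 5 array, whose products are the SAUR proteins best known for PP2C.D inhibition, the sum was 119 FPKM in untreated WT, 108 in untreated idd4-labelled seedlings, 72.9 in WT after flg22 and 30.4 in idd4-labelled seedlings after flg22. The 2 untreated sums were close and the 2 treated ones were not. SAUR20 (AT5G18020), the highest of the array, was at 53.7, 53.9, 26.9 and 12.3 FPKM in this order. SAUR21 (AT5G18030) was at 35.4, 30.8, 25.4 and 8.38 FPKM. These genes had equal or nearly equal untreated values and differed by -1.06 and -1.49 after flg22. SAUR24 was at 12.8, 7.61, 7.72 and 2.50 FPKM, already lower in untreated idd4-labelled seedlings, and differed by -1.32 after flg22. SAUR19 (AT5G18010) was at 5.89, 5.38, 2.55 and 0.956 FPKM, a difference of -0.86 after flg22. SAUR23 (AT5G18060) was at 5.08, 5.71, 4.91 and 2.70 FPKM. Its level in WT changed by -0.04 on treatment, so that its difference after flg22, -0.68, came with a fall in idd4-labelled seedlings alone. SAUR22 was at 6.42, 4.27, 5.45 and 3.51 FPKM and was the exception of the array, with -0.49 before and -0.52 after flg22. None of these 6 genes shared an exact window of read length with another gene, and 4 of them shared some within 2 mismatches.

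**Figure D3:**
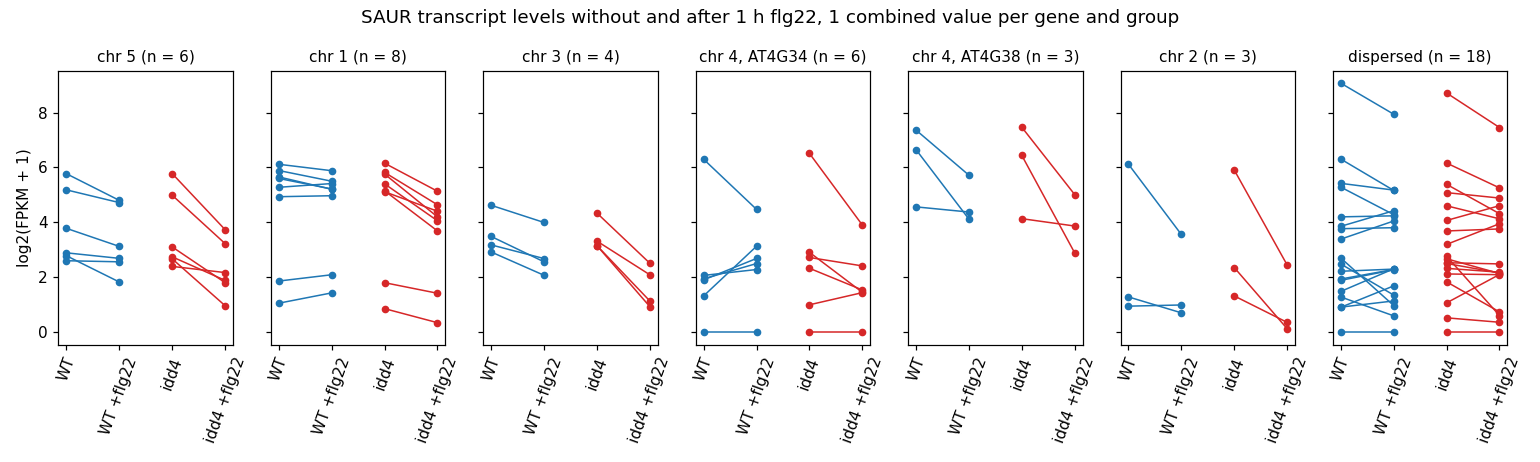
Levels of the 48 SAUR members in the first experiment, in log2(FPKM + 1), with 1 combined value per gene and group; lines join the untreated and flg22-treated value of a gene in WT (blue) and in idd4-labelled seedlings (red), and each panel is an array or the dispersed genes. The chromosome 1 lines change by less than 1.5-fold in WT and fall in idd4-labelled seedlings. Most lines of the chromosome 2 and AT4G38 arrays fall in both, but SAUR15 changes little and SAUR7 is nearly level in WT.

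In the chromosome 1 array, to which SAUR63, a promoter of hypocotyl and stamen filament elongation, belongs, the sum stayed nearer its untreated level in WT. It was 295 FPKM in untreated WT, 292 in untreated idd4-labelled seedlings, 251 in WT after flg22 and 125 in idd4-labelled seedlings after flg22. None of its 8 members was past 1.5-fold with flg22 in WT, and 6 of 7 compared were lower with flg22 in idd4-labelled seedlings. SAUR62 was at 68.4, 70.3, 58.0 and 34.1 FPKM. SAUR66 (AT1G29500) was at 58.3, 55.5, 44.2 and 23.9 FPKM. SAUR63 was at 49.4, 41.3, 35.9 and 15.7 FPKM. In each of these treated idd4-labelled seedlings was the lowest of the 4 groups, with differences from treated WT of -0.75, -0.86 and -1.15. AT1G29510 was at 47.5, 53.2, 36.2 and 17.4 FPKM. SAUR64 (AT1G29450) was at 37.8, 33.7, 41.6 and 20.2 FPKM. SAUR65 (AT1G29460) was at 29.6, 34.5, 30.4 and 11.9 FPKM. The last 2 did not fall with flg22 in WT, where they changed by 0.14 and 0.04, and they changed by -0.71 and -1.46 in idd4-labelled seedlings. The remaining members were low, SAUR61 (AT1G29420) at 2.64, 2.49, 3.26 and 1.67 FPKM and AT1G29490 at 1.08, 0.813, 1.70 and 0.272 FPKM. All 8 members of the array were at least 1.5-fold lower in idd4-labelled seedlings than in WT after flg22, from -0.67 (SAUR61) to -1.28 (SAUR65).

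The chromosome 3 array, with genes known from studies of growth in the warmth, had the lowest treated sum after that of chromosome 2. It was 48.5 FPKM in untreated WT, 44.0 in untreated idd4-labelled seedlings, 28.5 in WT after flg22 and 10.1 in idd4-labelled seedlings after flg22. SAUR29 (AT3G03820) was at 23.6, 19.2, 15.0 and 4.70 FPKM. SAUR28 (AT3G03830) was at 8.06, 7.89, 5.42 and 1.20 FPKM. Their differences after flg22, -1.48 and -1.54, were among the 4 largest of the better-expressed members, with those of SAUR5 (-1.69) and SAUR21. SAUR27 was at 6.57, 7.89, 3.20 and 0.906 FPKM, a difference of -1.14 after flg22. SAUR26 (AT3G03850) was at 10.2, 8.97, 4.91 and 3.26 FPKM, and its difference of -0.47 did not reach 1.5-fold.

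The sums of both arrays of chromosome 4 and of the array of chromosome 2 were lower after flg22 than before it in each genotype. The array AT4G34 summed to 88.0 FPKM in untreated WT, 108 in untreated idd4-labelled seedlings, 42.9 in WT after flg22 and 23.7 in idd4-labelled seedlings after flg22. The lower sum in WT was that of SAUR50 (AT4G34760), at 77.7 and 21.2 FPKM, while the other 4 members compared stood above their untreated level in WT, SAUR4 and SAUR5 (AT4G34810) by at least 1.5-fold. SAUR1 of that array had the most negative difference of flg22 changes among the better-expressed members, -2.01, from 2.85, 6.52, 4.66 and 1.74 FPKM. It was higher than WT before flg22 and lower after it. SAUR3 (AT4G34790) was at 3.19, 4.02, 3.87 and 1.91 FPKM. The array AT4G38 summed to 285, 278, 87.8 and 51.3 FPKM. SAUR15, an early auxin-responsive gene also known as SAUR-AC1, was its exception, at 22.7, 16.6, 19.8 and 13.6 FPKM. It differed between the genotypes by -0.43 before and -0.51 after flg22 and changed by -0.19 and -0.27 on treatment. The array of chromosome 2 summed to 70.8, 64.7, 12.4 and 4.85 FPKM and was made up almost entirely of SAUR6. The other 2, SAUR7 at 0.930, 1.501, 0.989 and 0.282 FPKM and SAUR12 at 1.44, 4.12, 0.631 and 0.0945 FPKM, were under 1 FPKM in both treated groups and were not compared there.

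Among the dispersed members, the difference between genotypes after flg22 was small for most. SAUR32 (AT2G46690), known from apical hook and drought studies, was at 78.0, 70.5, 34.8 and 37.2 FPKM in the order used above. SAUR31 (AT4G00880) was at 37.9, 40.8, 18.4 and 18.9 FPKM. Both fell with flg22 in each genotype to nearly the same level, with differences of 0.09 and 0.04 after flg22. SAUR55 (AT5G50760) was at 41.9, 32.9, 35.1 and 28.6 FPKM. SAUR30 was at 17.4, 23.3, 17.9 and 16.5 FPKM. SAUR72 (AT3G12830), a relative of SAUR41, was at 12.6, 11.9, 13.0 and 12.6 FPKM and was the steadiest of the members above 10 FPKM. SAUR51 was at 4.59, 5.38, 1.55 and 3.40 FPKM, and SAUR34 at 0.884, 3.35, 1.20 and 3.27 FPKM, and these were the 2 members higher in idd4-labelled seedlings after flg22. SAUR8 (AT2G16580), SAUR9 (AT4G36110), SAUR53 and SAUR76 (AT5G20820) stayed between 0.511 and 4.78 FPKM in all 4 groups. Their differences after flg22 lay between -0.13 and 0.22.

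The members are short, and short transcripts varied more in these tables. Among all genes with transcripts under 800 bases, 8.3% were at least 1.5-fold lower and 13.9% higher in idd4-labelled seedlings than in WT after flg22. Of the 18 members compared in that class 13 were lower and 0 were higher. Among genes of at least 800 and under 1000 bases, 3.85% were lower, and 8 of 16 members were. Among genes of 1000 bases or more, 0.943% were lower, and 2 of 8 members were. The median changes of all genes in these classes were 0.09, 0.07 and 0.06, against -0.95, -0.62 and -0.25 for the members. Without flg22, 8.87% of all genes under 800 bases were higher and 9.91% lower, and 2 and 1 of 19 members in that class were.

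Genes that act with SAUR proteins or upstream of them were counted in the same way after flg22, where 1.72% of all genes were lower and 3.15% higher in idd4-labelled seedlings. Of 6 AHA proton pump genes compared, 0 differed by 1.5-fold in either direction, and the same held for 6 TIR1/AFB auxin receptors, 5 activating ARF transcription factors, 5 GH3 genes of auxin conjugation, 5 auxin synthesis genes of the TAA1 and YUC families, and 7 PIF and BZR growth regulators. With 5 to 7 genes in a list, a count of 0 is near these shares of all genes. These lists were chosen with earlier results of these data known. The pumps HA1 (AT2G18960) and HA2 (AT4G30190), the major H+-ATPases, were at 28.6 and 22.3 FPKM in WT, against 30.6 and 22.8 FPKM in idd4-labelled seedlings after flg22. PIF4 (AT2G43010), a regulator of elongation growth, was at 38.8 and 26.8 FPKM, a difference of -0.52. Of the 7 PIF and BZR genes 5 were below WT and 2 above, with a median of -0.25. GH3.3 (AT2G23170), an auxin-induced gene of the pathway, was at 18.2 and 23.8 FPKM, and WES1 (AT4G27260), another GH3 gene, at 23.1 and 25.5 FPKM. The GH3 gene with the largest difference was BRU6 (AT4G37390), at 12.9 and 19.3 FPKM, a difference of 0.55. Of the 5 GH3 genes compared 4 were above WT and 1 below. Of 9 PP2C.D phosphatases 1 was lower, AT5G02760, at 16.3 FPKM in both untreated WT and treated WT, 16.0 in untreated idd4-labelled seedlings and 8.77 in treated ones. Of the 31 further SAUR genes of the annotation 17 were compared, of which 5 were lower and 0 were higher, beside 1.72% and 3.15% of all genes, with a median of -0.22. The lower ones were SAUR60 (AT1G20470, -0.93), SAUR56 (AT1G76190, -1.74), SAUR33 (AT3G61900, -0.67), SAUR48 (AT3G09870, -0.64) and SAUR13 (AT4G38825, -0.81). All but SAUR13, which stands next to the array AT4G38 by locus, lie outside the arrays. SAUR56, SAUR33 and SAUR48 were under 5 FPKM in both treated groups. SAUR49 (AT4G34750), next to the array AT4G34 by locus, differed by -0.13. A lower level was thus not confined to the arrays.

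The members' promoters were searched for 5 short motifs in windows of 300 bases, from 250 bases before to 50 bases after the annotated start of each gene, on both strands. The first was TGTCTC, the classical auxin response element. The second was its variant TGTCGG, which auxin response factors bind strongly. The third was AGACAA, core letters of the ID1 element that IDD proteins recognise. The others were the G-box CACGTG, which PIF and similar factors bind, and the related E-box CATATG. The ID1 core AGACAA was present in 21 of 48 members' windows, 43.8%, and in 23.5% of 26693 windows of all genes. It occurred in 17 of 30 array members and in 4 of 18 dispersed ones. TGTCTC was present in 8 members (16.7%, against 14.2% of all genes), all of them in arrays, and TGTCGG in 2 (4.17% against 5.12%). CATATG was found in 9 members (18.8% against 8.05%) and CACGTG in 0 (against 7.79%). Of 22 AGACAA matches in the members 3 overlapped a TGTCTC match, since the letters of the first motif, read on the other strand, run into those of the third. Of the 23 members that were lower in idd4-labelled seedlings after flg22, 12 held AGACAA, and 9 of the other 25 did. Within the arrays it was in 12 of 22 lower members and in 5 of the other 8. Members of an array share sequence by descent, so these windows are not independent. The windows of SAUR15, whose AGACAA match at position -91 from the start overlaps a match to the classical auxin element, of SAUR66 and of SAUR20 are shown as examples from 3 arrays, from RefSeq (TAIR10.1), 5′ to 3′ along the gene, with every match in capitals.
SAUR15 (AT4G38850, chr4:18125807-18126106, plus strand): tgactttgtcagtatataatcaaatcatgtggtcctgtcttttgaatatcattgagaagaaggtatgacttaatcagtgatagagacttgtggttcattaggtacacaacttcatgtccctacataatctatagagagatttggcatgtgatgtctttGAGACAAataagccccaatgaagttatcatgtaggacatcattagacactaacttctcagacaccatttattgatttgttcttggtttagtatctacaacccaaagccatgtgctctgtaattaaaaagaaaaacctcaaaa
SAUR66 (AT1G29500, chr1:10320761-10321060, plus strand): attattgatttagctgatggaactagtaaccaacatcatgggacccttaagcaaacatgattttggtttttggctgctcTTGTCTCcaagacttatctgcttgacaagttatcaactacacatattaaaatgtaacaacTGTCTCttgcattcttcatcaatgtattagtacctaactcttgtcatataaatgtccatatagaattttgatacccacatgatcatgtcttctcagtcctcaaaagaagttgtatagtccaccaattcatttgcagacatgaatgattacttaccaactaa
SAUR20 (AT5G18020, chr5:5966736-5967035, minus strand): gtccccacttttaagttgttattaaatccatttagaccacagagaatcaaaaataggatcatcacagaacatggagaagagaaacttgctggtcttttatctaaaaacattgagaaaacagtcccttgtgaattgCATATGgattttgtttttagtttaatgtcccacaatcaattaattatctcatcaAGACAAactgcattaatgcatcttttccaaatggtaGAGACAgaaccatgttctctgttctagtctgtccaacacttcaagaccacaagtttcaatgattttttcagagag
SAUR66 and SAUR20 were both lower in idd4-labelled seedlings after flg22, by 0.86 and 1.06 on the log2 scale, and SAUR15 did not reach 1.5-fold. A match is a description of letters and not a binding site. For SAUR15 the authors show an IDD4 profile from chromatin immunoprecipitation, with enrichment upstream of the gene. Those samples were not analysed here.

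The second experiment addressed how the levels stood where IDD4 was highly expressed. In IDD4ox 12 of 42 members were higher than in WT and 2 were lower, beside 3.94% and 2.49% of all genes, with 33 of 42 above WT and a median change of 0.27 beside 0.07. In IDD4-AA 4 were higher and 3 lower of 42, beside 1.85% and 2.12%, with a median of 0.09 beside 0.03. In IDD4-DD 5 were higher and 1 lower of 43, beside 3.15% and 2.47%, with a median of 0.12 beside 0.03. The 3 lines share their WT, so that these counts are not independent. Among all genes under 800 bases, 14.8% were higher and 8.78% lower in IDD4ox, and 7 and 1 of 17 members were. In IDD4-AA these shares were 7.78% and 10.8%, with 2 and 2 of 17 members. In IDD4-DD they were 11% and 8.66%, with 4 and 1 of 18 members. The array members summed to 312 FPKM in WT, 434 in IDD4ox, 341 in IDD4-AA and 357 in IDD4-DD, and the dispersed members to 354, 374, 359 and 381 FPKM. Of the 12 higher members in IDD4ox 10 were in arrays, as were 27 of the 42 members compared. The root marker sum was lower in all 3 lines than in WT, as given above, and its part in these differences was not tested.

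**Figure D4:**
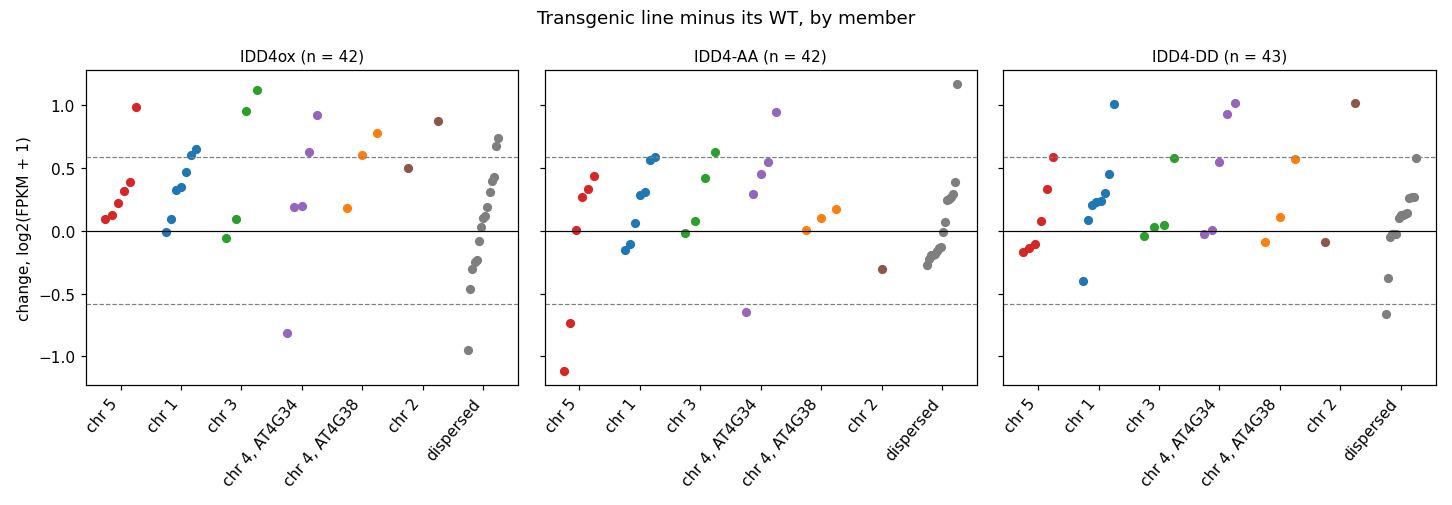
Difference between each transgenic line and the WT of the second experiment for each SAUR member, in log2(FPKM + 1) (42 members for IDD4ox, 42 for IDD4-AA and 43 for IDD4-DD); each point is 1 gene, columns are the arrays and the dispersed genes, and dashed lines mark 1.5-fold. In IDD4ox most points lie above 0 (33 of 42), as do 26 of 42 in IDD4-AA and 29 of 43 in IDD4-DD.

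The better-expressed members that were higher in IDD4ox came from several arrays. SAUR50 was at 27.6 FPKM in WT, 53.3 in IDD4ox, 38.1 in IDD4-AA and 41.0 in IDD4-DD. SAUR29 was at 7.02, 14.5, 11.4 and 7.26 FPKM in this order. SAUR22 was at 2.18, 5.32, 3.30 and 3.001 FPKM. In each of them IDD4ox was the highest of the 4 groups, with differences from WT of 0.92, 0.96 and 0.99. SAUR15 was at 3.92, 7.43, 4.56 and 4.30 FPKM, a difference of 0.78 in IDD4ox and of 0.18 and 0.11 in the other lines. SAUR14 was at 32.3, 49.7, 34.8 and 48.5 FPKM, SAUR62 at 10.1, 16.5, 12.8 and 12.1 FPKM and SAUR63 at 7.14, 11.3, 11.1 and 10.1 FPKM. The dispersed genes SAUR32 and SAUR36 were at 24.99 and 9.34 FPKM in WT, against 40.4 and 16.3 FPKM in IDD4ox. SAUR28, SAUR4 and SAUR12 made up the 12, at 3.73, 9.81 and 1.13 FPKM in IDD4ox against 1.17, 5.99 and 0.162 FPKM in WT. SAUR5 and SAUR34 were lower in IDD4ox, at 1.72 and 0.262 FPKM against 3.78 and 1.44 FPKM in WT. SAUR6, at 58.6, 83.2, 47.3 and 54.9 FPKM, was 0.50 above WT in IDD4ox, short of 1.5-fold, and was below WT in the other lines. The largest negative differences of IDD4ox among the better-expressed members were -0.30 for SAUR78 and -0.23 for SAUR30, neither of them past 1.5-fold.

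The lines with altered phosphorylation sites differed from WT in few members, most of them low. In IDD4-AA the higher members were SAUR29, AT1G29510 (11.1 FPKM in WT and 17.2), SAUR3 (1.84 and 4.48 FPKM) and SAUR10, which was at 1.25 FPKM in IDD4-AA and listed at 0 in WT. The lower ones in IDD4-AA were SAUR23 (9.73 and 5.45 FPKM), SAUR19 (2.98 and 0.839 FPKM) and SAUR5 (3.78 and 2.05 FPKM). In IDD4-DD the higher members were SAUR24 (8.89 and 13.9 FPKM), SAUR3 (4.76 FPKM), SAUR1 (1.08 and 2.97 FPKM), SAUR12 (1.36 FPKM) and AT1G29490, at 1.01 FPKM in IDD4-DD and listed at 0 in WT. The lower one was SAUR76, known from work on leaf and root growth, at 4.16 FPKM in WT and 2.26 in IDD4-DD. SAUR14 and SAUR50 were higher in IDD4-DD by 0.57 and 0.55, just under 1.5-fold, which is 0.59 on this scale. Set directly against IDD4-AA, IDD4-DD had 4 of 44 members higher and 1 lower, beside 2.7% and 1.43% of all genes, with a median of 0.06 beside -0.01. The higher ones were SAUR19, SAUR5, SAUR12 and AT1G29490, and the lower one was SAUR10, all of them under 5 FPKM in both lines. Of all genes under 800 bases, 11.3% were higher and 5.93% lower in this comparison, and 3 and 0 of 18 members were. The RNA of IDD4 itself was lower in IDD4-AA than in IDD4-DD, as given above. The authors, in contrast, report lines chosen for comparable transcript levels, with equal protein by immunoblot. The altered residues and the transgene RNA level cannot be told apart in this comparison. None of the members was at least 1.5-fold higher in all 3 lines.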

How the data were processed

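RNA of whole seedlings was sequenced by the authors as paired reads of 101 bases, cleaned by Trimmomatic, mapped on TAIR10 by TopHat and quantified by Cufflinks. The 2 tables deposited by the authors hold FPKM, 1 value per gene and group combined over replicates, for 27371 genes and 8 groups. Values per sample were not used here, so no test was possible. Read depth is unknown, and whole reads could not be recovered, since 4517 of the 4537 values between 0 and 1 in untreated WT were distinct. The chromatin immunoprecipitation samples were not analysed here.

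Identifiers and values were not in register. Of 27371 identifiers 21642 (43 of the 48 members) were away from their alphabetical place. Untreated values of WT and idd4-labelled seedlings were compared with the authors' own lists of clustered genes and of untreated mutant genes. Sorted identifiers gave equal values (relative tolerance 0.001) for 1900 of 1900 and 1997 of 1997 genes, 3 and 8 of them members. The order as listed gave equal values for 534 and 499, so sorted identifiers were used. Values after flg22 and those of the second experiment were not checked in this way.

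Changes are differences of log2(FPKM + 1) in 9 comparisons. Genes with at least 1 FPKM in a group compared entered a comparison, and 1.5-fold was the limit for a call. Members and lists were chosen with earlier results of these data known. The members named with values are the highest one, the chromosome 5 and chromosome 1 arrays, SAUR15, and members at 0. Up to 4 rises and 4 falls per comparison among members of at least 5 FPKM are also named, and further members were added after their values were seen. RefSeq TAIR10.1 gave names (26703 of 27371 identifiers and 48 of 48 members matched), transcripts and promoters. Python 3.11.15, pandas 2.3.3 and numpy 2.4.6 were used. Alternatives were other pseudocounts, filters, a 2-fold limit, other scalings and arrays summed to 1 unit.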

Additional observations from a re-analysis of the deposited data

How the results depend on the processing

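No paired analysis was possible because the tables hold 1 value per group, and for the same reason no replicate could be left out. The median change of the members after flg22 was between -0.80 and -0.13 over the alternatives, the latter with each array as 1 unit, and stayed below 0. In the untreated comparison it lay at 0.01 and was -0.07 with a filter of at least 5 FPKM and 0.56 when scaled to nuclear genes, where the median of all genes was 0.45. Counts of members moved more, and 66 of their values lay beyond 1.5 times the counts given above, while 78 did not. The order in each sentence below is higher, then lower. Where a single value is given, the other side moved less. Percentages beside the counts are shares of all genes compared at the same setting. With a 2-fold limit, the untreated comparison of genotypes gave 2 and 0 members, beside 0.523% and 0.463%. That after flg22 gave 0 higher, beside 0.63%. The flg22 treatment gave 1 and 9 in WT, beside 10.9% and 8.48%, and 1 higher in idd4-labelled seedlings, beside 13.1%. Their difference gave 0 and 14, beside 1.3% and 0.796%. IDD4ox gave 1 and 0, beside 0.857% and 0.736%, and IDD4-AA 1 and 1, beside 0.308% and 0.615%. IDD4-DD gave 3 and 0, beside 0.981% and 0.601%, and IDD4-DD against IDD4-AA 0 higher, beside 0.971%. With a pseudocount of 5, the genotypes gave 0 and 0 untreated, beside 0.447% and 0.572%, and 0 and 15 after flg22, beside 1.05% and 0.536%. The flg22 treatment gave 1 and 10 in WT, beside 12.4% and 10.9%, and 0 higher in idd4-labelled seedlings, beside 14.9%. The difference gave 0 and 18, beside 1.89% and 0.749%, and IDD4ox 3 and 0, beside 1.15% and 1.06%. IDD4-AA gave 0 and 0, beside 0.488% and 0.764%, and IDD4-DD 0 and 0, beside 1.08% and 0.897%. IDD4-DD against IDD4-AA gave 0 and 0, beside 0.928% and 0.417%. With a pseudocount of 0.1, the genotypes gave 8 and 2 untreated, beside 3.12% and 4.37%. The flg22 treatment gave 8 higher in WT, beside 19%, and IDD4-DD against IDD4-AA gave 3 lower, beside 3.17%. With a filter of at least 5 FPKM, the genotypes gave 2 higher untreated, beside 1.07%, and 0 and 15 of 27 members after flg22, beside 2.85% and 1.41%. The flg22 treatment gave 3 higher in WT, beside 21.5%, and 1 higher in idd4-labelled seedlings, beside 25.7%. IDD4ox gave 0 lower, beside 2.44%, and IDD4-AA 2 and 1, beside 1.57% and 1.9%. IDD4-DD gave 1 and 0, beside 2.72% and 2.4%, and IDD4-DD against IDD4-AA 0 and 0, beside 2.2% and 1.04%. With each array summed to 1 unit there are fewer units, and no share of all genes was computed to set beside them. The units gave 2 and 0 untreated, 7 lower of 21 after flg22, and 3 higher with flg22 in WT. They gave 11 lower with flg22 in idd4-labelled seedlings and 8 lower of 23 for the difference. For the lines they gave 4 and 1 in IDD4ox, 1 and 0 in IDD4-AA, 0 higher in IDD4-DD and 0 higher for IDD4-DD against IDD4-AA. Scaling by the median of ratios gave 0 higher for the difference, beside 4.73%. Scaling to the sum of nuclear genes took out a shift of -0.58 in the untreated comparison, of 0.45 with flg22 in idd4-labelled seedlings and of 0.50 in the difference. It gave 20 and 0 untreated, beside 24.3% and 0.492%, and 8 higher in IDD4-DD, beside 3.4%. With flg22 in idd4-labelled seedlings it gave 1 and 37 of 45 members, beside 13.5% and 40%. Before this scaling 28 of 44 members and 19.4% of all genes were lower there. For the difference it gave 0 and 36 of 46 members, beside 1.66% and 18.2%. Before it 28 of 46 members and 2.75% of all genes were on the lower side of the difference. The cause of the shift that nuclear scaling took out was not tested. Without values per sample, the spread between seedlings that these counts should be read against is unknown.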

Other observations

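Further SAUR genes of the annotation, outside the list described above, moved in both directions with flg22. Of 31 such genes, 20 were compared in WT, of which 8 were at least 1.5-fold higher and 8 lower after flg22, beside 17.1% and 22.2% of all genes. In idd4-labelled seedlings, 7 were higher and 7 lower of 19, beside 20.4% and 19.4% of all genes. SAUR59 (AT3G60690) was at 59.4 FPKM in untreated WT and 233 after flg22, and at 60.4 and 340 FPKM in idd4-labelled seedlings, and held most of the sum of these genes after treatment. SAUR71 (AT1G56150), a relative of SAUR41, was at 17.9 and 44.6 FPKM in WT, against 17.8 and 41.1 FPKM in idd4-labelled seedlings. SAUR45 (AT2G36210) went from 1.63 to 9.70 FPKM and from 1.62 to 12.8 FPKM. These values were chosen after they had been seen. The sum of the 31 genes went from 179 to 369 FPKM in WT and from 176 to 453 in idd4-labelled seedlings, while the sum of the 48 members was lower after flg22 in both.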
